A study of Mus musculus with 39 samples.

Results

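The transcripts described here are 10 genes of innate sensing and early inflammation, taken by symbol from a table of 55416 mouse genes: Lbp, Cd14, Tlr4, Tlr2, Myd88, Irak3, Nfkbia, Nlrp3, Il1b and Tnf. They were listed by name, with earlier results of these data known. Of these, 9 passed the filter on low counts and were tested among 15296 genes, whereas Tnf did not pass. RNA of snap-frozen liver was sequenced from 39 male mice, with 1 library per mouse. Knockout mice carried the allele CD163tm1(KOMP)Vlcg on C57BL/6NTac, and the wildtype mice were their littermates from crosses of heterozygous parents. From 6 weeks of age they were fed for 8 weeks. The wildtype chow (n = 5) and knockout chow (n = 4) groups ate the #1320 Altromin maintenance feed and drank plain water. Both Western diet groups, wildtype (n = 15) and knockout (n = 15), ate Western diet and had fructose in the water. CD163 is a macrophage receptor for complexes of haemoglobin and haptoglobin, and the allele is carried in the germline, so its loss is not limited to the liver. The comparisons address how loss of CD163 and the diet each bear on the liver.

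In mammals, lipopolysaccharide from gut bacteria reaches the liver through the portal vein. LBP, made by hepatocytes, passes it to CD14, and CD14 hands it to the receptor TLR4. TLR2 senses bacterial lipoproteins. Both receptors signal through the adaptor MYD88 to NF-kB, a transcription factor that the inhibitor encoded by Nfkbia holds in the cytoplasm and that in turn raises transcription of Nfkbia, Tnf and Il1b. IRAK3 dampens the kinase step below MYD88, and the NLRP3 inflammasome activates Casp1, which cleaves the IL-1 beta precursor. Kupffer cells, the resident macrophages of the liver, carry much of this machinery, whereas Lbp is an acute phase gene of hepatocytes.

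Library totals lay between 8578865 and 30438808 counts, with a median of 14573193. Levels below are CPM, a gene's counts per 1000000 counts of its library total as scaled by TMM. The targeted gene, Cd163 (ENSMUSG00000008845), held 41 to 252 counts in the wildtype and 0 to 12 counts in the knockout libraries, with a log2 fold change of -4.50 (SE 0.30, edgeR adjusted p = 1.04e-13) on Western diet and -3.86 (SE 0.53, adjusted p = 1.27e-04) on chow. The hepatocyte markers were present in every library, with a summed level of 38403 to 76225 CPM over 6 genes. In 4 libraries the genes that differ most between the diets stood with the other diet. On a scale with the median chow library at 0 and the median Western diet library at 1, read from the 206 genes called at 2-fold or more, 2 chow libraries scored 0.789 (wildtype A) and 0.878 (knockout D), and 2 Western diet libraries 0.255 (wildtype A) and 0.146 (knockout M). All other chow libraries lay between -0.0950 and 0.103 and all other Western diet libraries between 0.845 and 1.24. Tests kept the 4 under their labels, and results are also given without them, with the limit that the same diet genes chose the 4. The labels do not settle which diet these 4 mice ate, so each diet value rests on the labels as given. No replicate libraries were closer to each other than wildtype L and M on Western diet, with a chi-square per gene of 3.62 against 9.12 for the next pair, where sampling noise alone gives about 1, and were kept as 2 mice.

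Promoter windows of RefSeq (GRCm38.p6, 250 bases before to 50 after a gene's start) were at hand for 7 of the 10 genes, namely Il1b, Tlr2, Myd88, Irak3, Nlrp3, Nfkbia and Tnf. Tlr2 and Nfkbia are shown because both are known NF-kB targets and yet differed in several of the livers described below. The windows are written 5′ to 3′ on the strand of the gene, with matches to the NF-kB consensus in capitals. The Tlr2 window lies at chr3:83841559-83841858 on the minus strand, and the Nfkbia window at chr12:55492598-55492897 on the minus strand.
Tlr2: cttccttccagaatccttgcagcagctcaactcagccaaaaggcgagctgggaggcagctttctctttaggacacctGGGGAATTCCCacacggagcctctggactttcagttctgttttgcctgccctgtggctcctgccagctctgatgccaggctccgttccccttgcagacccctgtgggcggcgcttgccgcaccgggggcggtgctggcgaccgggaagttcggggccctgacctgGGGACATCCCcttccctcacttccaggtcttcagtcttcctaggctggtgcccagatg
Nfkbia: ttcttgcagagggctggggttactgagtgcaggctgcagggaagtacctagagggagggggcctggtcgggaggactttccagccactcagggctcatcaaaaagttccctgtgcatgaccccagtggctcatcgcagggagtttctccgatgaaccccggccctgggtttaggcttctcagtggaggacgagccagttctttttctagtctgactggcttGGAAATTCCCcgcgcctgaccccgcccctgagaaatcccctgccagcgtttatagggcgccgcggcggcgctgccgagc
Read on both strands, the consensus matched at window bases 78 to 87 and, overlapping, 79 to 88 and at bases 243 to 252 for Tlr2, and at bases 222 to 231 for Nfkbia. Nlrp3 held a match as well, so 3 of the 7 genes had at least 1. Of all 32851 windows in the table, 1480 or 4.505% hold a match, and 1388 of 27025 genes do (5.136%). A match is a run of letters and was not tested as a binding site.

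Levels per length of the annotated exons, as the median over all 39 livers, were highest for Nfkbia at 37.5 CPM per kb, then Lbp at 18.5 and Myd88 at 8.17. The other genes were far lower. Cd14 stood at 1.24 CPM per kb, Tlr2 at 0.759, Il1b at 0.706, Irak3 at 0.290, Nlrp3 at 0.223, Tlr4 at 0.220 and Tnf at 0.151. Hepatocytes make up most of the tissue, and in bulk liver fewer cells of a type cannot be told apart from less RNA per cell.

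No gene of the set passed the threshold in any comparison with all 39 livers (edgeR quasi-likelihood test, Benjamini-Hochberg adjusted p under 0.05 over all tested genes). Between the genotypes 0 of 9 passed on Western diet, where 0.00654% of all tested genes did, and 0 of 9 on chow, where again 0.00654% did. For Western diet against chow, 0 of 9 passed in wildtype mice against 1.39% of all genes. In knockout mice 0 of 9 passed, and 0.00654% of all genes did. Averaged over the genotypes it was 0 of 9 against 14.6%. The interaction, which asks whether the diet difference differs between the genotypes, had 0 of 9 and 0% of all genes. DESeq2 and limma voom also called 0 of 9 in each of the 6 comparisons. At an unadjusted p under 0.05 the edgeR test held 2 of 9 for genotype on chow (Tlr4 and Lbp), 1 of 9 for the interaction (Tlr4) and 0 of 9 in each of the other 4. Of all tested genes, 2.74% were under that p for genotype on chow, 1.86% for the interaction, 5.08% for genotype on Western diet, and 17.2%, 19.2% and 30.4% for diet in wildtype, in knockout and averaged. Averaged over the genotypes, the diet differences of the 9 lay between -0.27 (Il1b, SE 0.33) and 0.79 (Tlr2, SE 0.57) on the log2 scale, and the interactions between -0.052 (Cd14, SE 0.47) and 1.49 (Tlr2, SE 1.11). Without the 4 libraries the members called were 0 of 9 for genotype on Western diet (0.00647% of 15461 tested genes), 0 of 9 for genotype on chow (0.00647%), 0 of 9 for diet in wildtype (8.66%), 1 of 9 for diet in knockout (17.2%), 0 of 9 for diet averaged (29.9%) and 0 of 9 for the interaction (0%). The 1 called gene was Tlr4.

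**Figure D1:**
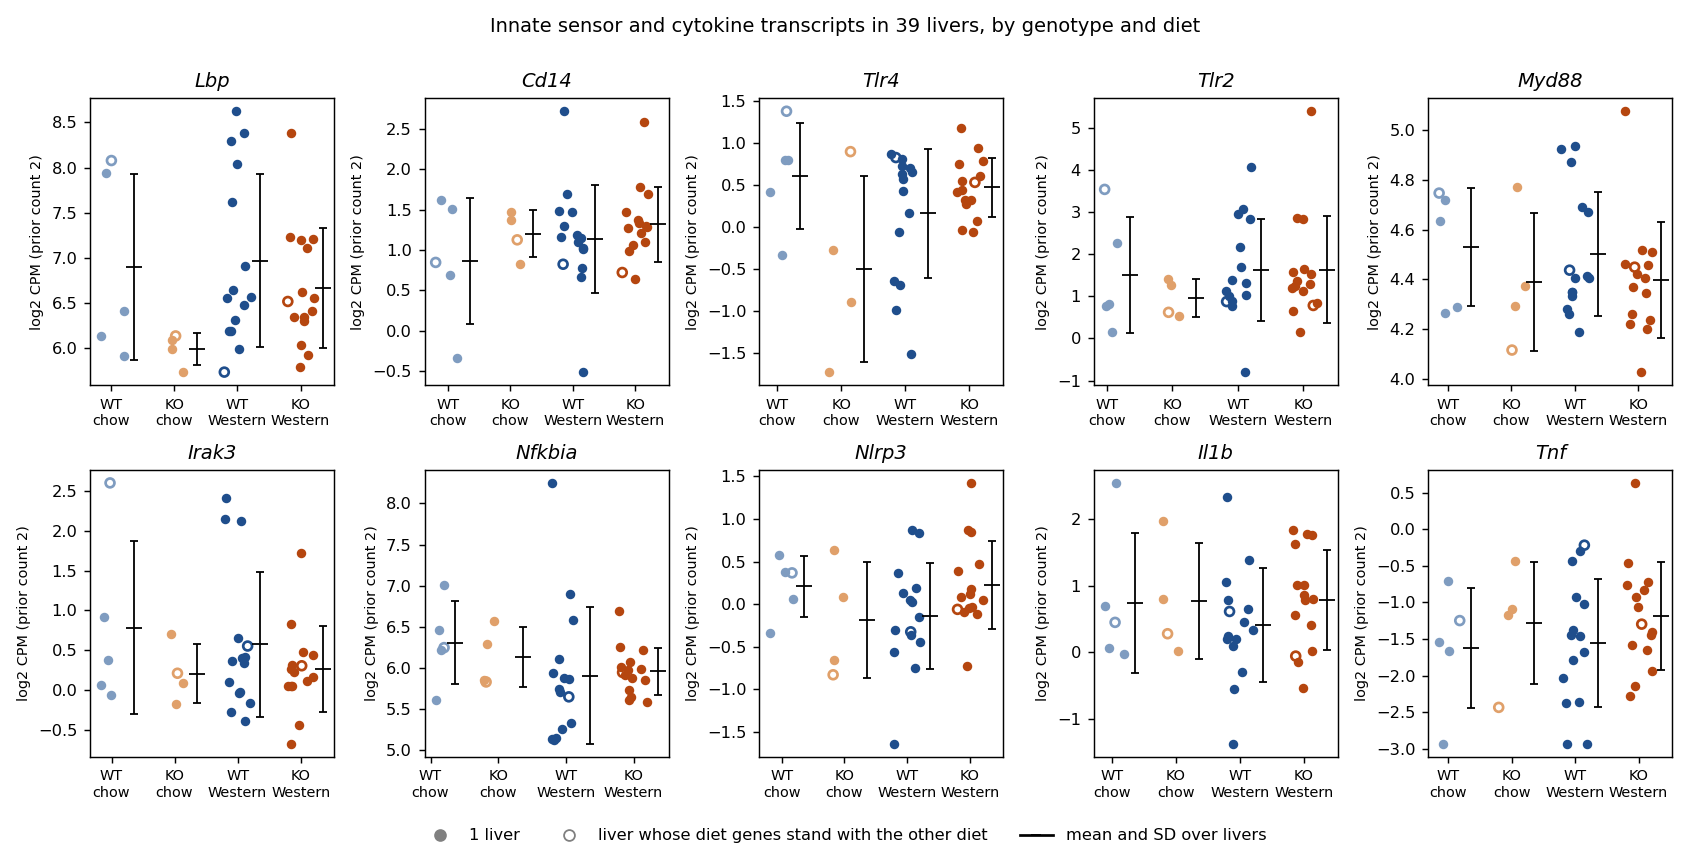
Level of each gene in each liver (y axis, log2 CPM with a prior count of 2) by genotype and diet group (x axis); each point is 1 liver, open points are the 4 livers whose diet genes stand with the other diet, and bars are the mean and SD over the livers of a group. The groups overlap in every panel. A single liver stands far above the rest for Tlr2 and for Nfkbia, and several livers are high for Lbp and Irak3.

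Lbp (ENSMUSG00000016024), the carrier of lipopolysaccharide, was the ligand-handling gene with the largest spread. The wildtype chow livers D, C, B, E and A had 60.2, 70.4, 84.9, 245 and 270 CPM. All 4 knockout chow livers were low, with 53.2 (B), 63.3 (A), 68.2 (C) and 70.2 CPM (D). On Western diet the wildtype livers ran from 53.1 (A) through a median of 94.8 to 394 CPM (G), and the knockout livers from 55.2 (O) through 91.5 to 334 CPM (E). Thus the medians on Western diet lay close together, while 5 wildtype livers (G, L, M, N and F, at 394, 334, 314, 262 and 197 CPM) but 1 knockout liver (E) were above 149.7 CPM, the next value on this diet, held by knockout H. That line was set after the values were seen, and wildtype L and M are the closest replicate pair named above. The group means were 146 ± 102 and 63.7 ± 7.60 CPM (SD, n = 5 and 4) on chow and 156 ± 114 and 114 ± 68.8 CPM (n = 15 each) on Western diet, wildtype before knockout. The log2 fold change of knockout against wildtype was -0.46 (SE 0.31, 95% interval -1.06 to 0.14, adjusted p = 0.956) on Western diet. On chow it was -1.20 (SE 0.58, unadjusted p = 0.0461, adjusted p = 1.00) with all libraries and -0.93 (SE 0.65, adjusted p = 0.914) without the 4. Diet gave 0.09 (SE 0.44) in wildtype and 0.83 (SE 0.50, adjusted p = 0.350) in knockout mice.

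Cd14 (ENSMUSG00000051439), the co-receptor that receives lipopolysaccharide from LBP, was low and close between the groups. Wildtype chow livers had 0.660 (C), 1.48 (D), 1.67 (A), 2.71 (B) and 2.93 CPM (E), and knockout chow livers 1.64 (A), 2.05 (D), 2.46 (C) and 2.65 CPM (B). On Western diet the wildtype livers ran from 0.569 (J) through a median of 2.09 to 6.45 CPM (G), and the knockout livers from 1.43 (I) through 2.30 to 5.87 CPM (F). Wildtype G and knockout F stood alone, since the next liver was knockout Western diet N at 3.31 CPM. The genotype difference was 0.14 on Western diet (SE 0.22, 95% interval -0.29 to 0.57) and 0.19 on chow (SE 0.41), and the diet differences were 0.26 (SE 0.32) in wildtype and 0.21 (SE 0.34) in knockout mice, all as log2 fold changes. Without knockout F the first of these was -0.03, and without wildtype chow C the value on chow was -0.02.

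Tlr4 (ENSMUSG00000039005), the receptor for lipopolysaccharide, was the gene of the set with the lowest unadjusted p between the genotypes on chow. The wildtype chow livers had 0.660 (C), 1.20 (D), 1.60 (E), 1.60 (B) and 2.46 CPM (A). Knockout chow livers C, B and A had 0.170, 0.407 and 0.692 CPM, from 2, 6 and 11 counts, and knockout chow D, which stood with the other diet, had 1.73 CPM from 32 counts. Knockout C and B were below every wildtype chow liver, knockout A was just above wildtype C, and knockout D was above every wildtype liver but A. On Western diet the wildtype livers ran from 0.217 (D) through a median of 1.36 to 1.69 CPM (G) and the knockout livers from 0.828 (B) through 1.22 to 2.13 CPM (F). The 4 lowest livers there were wildtype, namely D, E, C and J at 0.217, 0.371, 0.487 and 0.506 CPM, and the ranges overlapped.

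On chow the log2 fold change of Tlr4 between the genotypes was -0.95 (SE 0.46, 95% interval -1.84 to -0.05, unadjusted p = 0.0443, adjusted p = 1.00), and on Western diet it was 0.22 (SE 0.24, adjusted p = 0.962). The diet difference was -0.43 (SE 0.33) in wildtype and 0.74 (SE 0.40, adjusted p = 0.293) in knockout mice, and their difference, the interaction, was 1.16 (SE 0.52, unadjusted p = 0.0295, adjusted p = 1.00). Without the 4 libraries Tlr4 was higher on Western diet in knockout mice, at 1.29 ± 0.371 CPM (SD, n = 14) against 0.423 ± 0.261 CPM (n = 3), with a log2 fold change of 1.59 (SE 0.46, adjusted p = 0.0166), in a comparison that called 17.2% of all genes. Leaving out knockout chow D alone gave 1.58 (adjusted p = 0.0285). This call rests on 3 knockout chow livers with 2 to 11 counts each. The interaction without the 4 was 1.83 (SE 0.57, unadjusted p = 0.00279) at an adjusted p of 0.999, so the diet difference was not shown to differ between the genotypes. The genotype difference on chow without the 4 was -1.56 (SE 0.52, unadjusted p = 0.00494, adjusted p = 0.910), and the averaged diet difference was 0.68 (SE 0.29, adjusted p = 0.0707).

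Tlr2 (ENSMUSG00000027995), the lipoprotein receptor, varied between mice more than nearly all other genes. Its biological coefficient of variation, the fitted spread between mice of a group beyond counting noise, was 0.903, higher than in 99.1% of tested genes, against a median of 0.199. Wildtype chow livers had 0.985 (B), 1.57 (C), 1.62 (D), 4.69 (E) and 11.4 CPM (A), and knockout chow livers 1.32 (A), 1.40 (D), 2.29 (C) and 2.51 CPM (B). Wildtype livers on Western diet ran from 0.443 (J) through a median of 2.35 to 16.5 CPM (G), and knockout livers from 0.976 (K) through 2.30 to 41.7 CPM (E). Knockout E alone held 525 counts and lifted the knockout mean to 5.42 ± 10.2 CPM, above the wildtype mean of 4.19 ± 4.17 CPM, although the medians were nearly equal. The genotype difference on Western diet was 0.37 on the log2 scale (SE 0.50, adjusted p = 0.969) with this liver and -0.54 without it. On chow it was -1.12 (SE 0.99) with all libraries and -0.18 (SE 1.13) without the 4. The diet difference was 0.04 (SE 0.72) in wildtype and 1.53 (SE 0.89, adjusted p = 0.332) in knockout mice. In wildtype mice it was -0.31 without Western diet G, 0.88 without chow A and 0.95 without the 4 libraries, and in knockout mice it was 0.62 without Western diet E.

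Myd88 (ENSMUSG00000032508), the adaptor shared by both receptors, was the steadiest gene of the set, with a coefficient of variation of 0.170, higher than in 39.8% of tested genes. Its livers ran from 19.1 (B) to 26.7 CPM (A) in wildtype chow, with 24.7, 19.4 and 26.2 CPM in C, D and E, and had 20.6 (A), 19.5 (B), 27.2 (C) and 17.2 CPM (D) in knockout chow. The lowest, median and highest values on Western diet were 18.1 (H), 21.1 and 30.5 CPM (M) in wildtype and 16.2 (J), 21.1 and 33.6 CPM (E) in knockout mice. All groups overlapped. The genotype difference was -0.11 (SE 0.09, 95% interval -0.28 to 0.07) on Western diet and -0.14 (SE 0.16) on chow, and the diet differences were -0.02 (SE 0.13) in wildtype and 0.01 (SE 0.14) in knockout mice. In the GRCm38 annotation of GENCODE M21, Myd88 shares 1736 bases with Acaa1a on the opposite strand, a gene of hepatocyte lipid breakdown with a median of 333 CPM. It also shares 5478 bases with Slc22a14 on the same strand. Both overlaps are of whole gene spans, introns included, and overlap of the counted exons was not measured. The strand setting of the counting is not given in the sources used here. Whether reads of either gene entered the count of the other therefore cannot be told. Acaa1a and Myd88 had a Spearman correlation of -0.23 over the 30 Western diet livers.

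Irak3 (ENSMUSG00000020227), a brake on signalling below MYD88, was high in 5 livers. Wildtype chow livers had 0.826 (C), 0.915 (D), 1.17 (B), 1.76 (E) and 5.94 CPM (A), and knockout chow livers 0.755 (A), 0.933 (C), 1.03 (D) and 1.49 CPM (B). On Western diet the wildtype livers ran from 0.633 (J) through a median of 1.16 to 5.20 CPM (G) and the knockout livers from 0.494 (D) through 1.04 to 3.18 CPM (E). Wildtype chow A, wildtype Western diet G, M and L (4.31 and 4.23 CPM) and knockout Western diet E were the 5, and no other liver was above 1.76 CPM. Of these, M and L are the closest replicate pair named above. The genotype difference on Western diet was -0.57 (SE 0.32, 95% interval -1.20 to 0.06, adjusted p = 0.943), and on chow -1.004 (SE 0.60) with all libraries and -0.19 (SE 0.65) without the 4. The diet difference in wildtype mice was -0.30 (SE 0.43) and turned to 0.57 (SE 0.48) without the 4 or 0.54 without wildtype chow A alone. In knockout mice it was 0.14 (SE 0.52). The gene span of Irak3 shares 541 bases with that of Tmbim4 on the opposite strand (median 66.7 CPM). Whether any counted reads were shared cannot be told.

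Nfkbia (ENSMUSG00000021025), the NF-kB inhibitor that NF-kB itself induces, had 48.7 (C), 74.4 (D), 75.9 (A), 87.8 (B) and 128 CPM (E) in wildtype chow livers and 56.8 (D), 57.5 (A), 78.2 (B) and 95.04 CPM (C) in knockout chow livers. Wildtype livers on Western diet ran from 34.9 (E) through a median of 53.4 to 304 CPM (N), and knockout livers from 47.9 (J) through 61.6 to 104 CPM (F). Wildtype N was far above the next wildtype liver there, G at 119 CPM. It was also the liver with the highest summed level of the 8 immediate early genes, a class induced within minutes of stress or handling, at 571 CPM, where the median of its group was 178 CPM. The part of those genes in the Nfkbia value was not tested. Its genotype difference on Western diet was -0.21 (SE 0.24, adjusted p = 0.962) with liver N and 0.15 without it, and on chow it was -0.21 (SE 0.44). The diet differences were -0.17 (SE 0.33) and -0.18 (SE 0.36) in wildtype and knockout mice.

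Nlrp3 (ENSMUSG00000032691), the sensor of the inflammasome, was near 1 CPM in all groups. Wildtype chow livers had 0.660 (C), 0.915 (D), 1.16 (A), 1.17 (E) and 1.35 CPM (B), and knockout chow livers 0.432 (D), 0.503 (A), 0.933 (C) and 1.43 CPM (B). On Western diet the wildtype livers ran from 0.190 (J) through a median of 0.773 to 1.69 CPM (G), and the knockout livers from 0.473 (N) through 0.926 to 2.55 CPM (F), the highest of all. The genotype difference was 0.39 (SE 0.23, 95% interval -0.07 to 0.84, adjusted p = 0.943) on Western diet and -0.38 (SE 0.43) on chow. The diet differences were -0.30 (SE 0.32) in wildtype and 0.47 (SE 0.37) in knockout mice. With 1 library left out in turn, the value on chow ran from -0.80 (without knockout B) to -0.18 (without knockout D), and the diet difference in knockout mice from 0.26 (without knockout D) to 0.88 (without knockout B).

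Il1b (ENSMUSG00000027398), the cytokine that the inflammasome matures, had 0.844 (D), 0.908 (C), 1.23 (A), 1.48 (B) and 5.70 CPM (E) in wildtype chow livers and 0.881 (A), 1.08 (D), 1.61 (C) and 3.80 CPM (B) in knockout chow livers. Western diet values ran from 0.253 (J) through 1.13 to 4.88 CPM (G) in wildtype and from 0.558 (K) through 1.61 to 3.43 CPM (B) in knockout mice. The genotype differences were 0.31 (SE 0.33, adjusted p = 0.962) on Western diet and -0.18 (SE 0.59) on chow, and the latter was 0.70 without wildtype chow E. Diet gave -0.51 (SE 0.44) in wildtype, which turned to 0.37 without the same liver, and -0.02 (SE 0.50) in knockout mice, which turned to 0.61 without knockout chow B. The gene span of Il1b shares 1243 bases with that of its antisense gene Il1bos.

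Tnf (ENSMUSG00000024401), a cytokine of activated macrophages, was close to the limit of detection. Libraries held 0 to 12 counts, except for knockout Western diet F with 50 counts or 1.42 CPM. Wildtype chow C and wildtype Western diet E and M had 0 counts. The group means were 0.233 ± 0.174 and 0.330 ± 0.228 CPM on chow and 0.272 ± 0.238 and 0.372 ± 0.327 CPM on Western diet, wildtype before knockout. Tnf entered no test at the filter used. In a fit without the filter its genotype difference was 0.52 (SE 0.40, adjusted p = 0.675) on Western diet and 0.37 (SE 0.76) on chow, and its diet difference was 0.16 (SE 0.60) in wildtype and 0.30 (SE 0.61) in knockout mice.

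**Figure D2:**
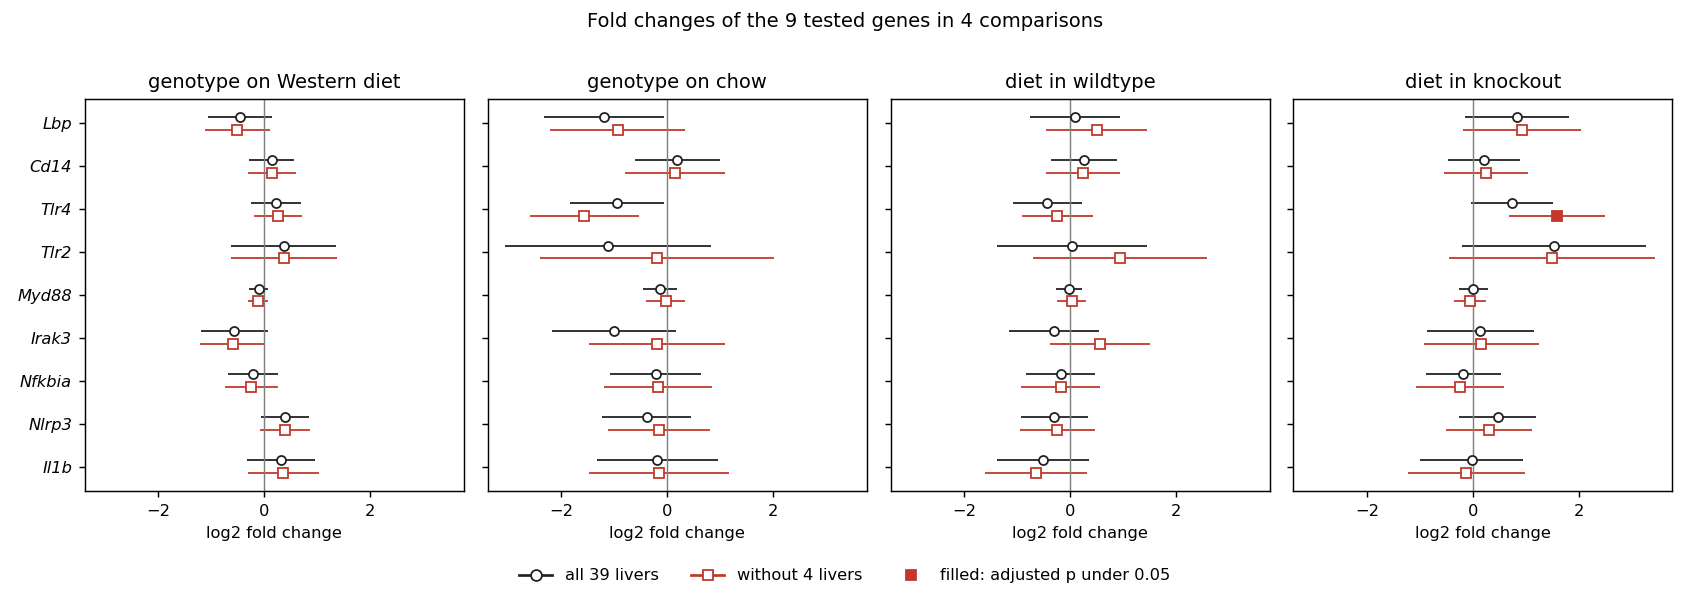
Log2 fold change (x axis) of the 9 tested genes (y axis) in 4 comparisons, knockout against wildtype or Western diet against chow; points are edgeR estimates, bars approximate 95% intervals, black with all 39 livers and red without the 4 livers whose diet genes stand with the other diet. The single filled point is Tlr4 for diet in knockout mice without the 4 livers, at 1.59.

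The livers with high values were in part the same for several genes. The 8 livers highest in Lbp were wildtype Western diet G, L, M, N and F, knockout Western diet E, and wildtype chow A and E. The same 8 livers held the 8 highest summed levels of 15 other acute phase genes, from 26262 to 66128 CPM, against 25989 CPM in the next liver. Of these 8, 6 were also among the 8 highest in Tlr2, and 5 were the 5 highest in Irak3. Both counts, and the split of Nfkbia given next, include wildtype Western diet L and M, the closest replicate pair named above. Wildtype chow E and wildtype Western diet N and F had high Lbp but were not among the 5 highest in Irak3, at 1.76, 0.944 and 0.695 CPM. Nfkbia was split among the 8. Wildtype Western diet N, wildtype chow E and wildtype Western diet G and F were 4 of its 5 highest livers, at 304, 128, 119 and 95.7 CPM, whereas wildtype L and M, at 35.4 and 38.2 CPM, were among the 4 lowest of all 39. Knockout Western diet E had the highest Tlr2 and Myd88 of all livers with Nfkbia at 63.0 CPM, near its group's median.

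Wildtype Western diet G was first for Lbp and Cd14 and among the 5 highest livers for each of the 9 tested genes. It also had the highest summed levels of the 8 Kupffer cell markers (481 CPM), the 15 acute phase genes (66128 CPM) and the 8 neutrophil markers (21.2 CPM). Knockout Western diet F, the deepest library, was first for Nlrp3 and Tnf and second for Cd14 and Tlr4, with Lbp at 93.6 CPM. It had the highest summed level of the 8 recruited macrophage markers (148 CPM) and the next highest of the Kupffer cell markers (473 CPM). At the other end, wildtype Western diet J was lowest of all livers in Tlr2, Cd14, Nlrp3 and Il1b, and lowest in the Kupffer cell (83.2 CPM), recruited macrophage (51.5 CPM) and neutrophil markers (0.127 CPM). The part of these markers in the gene levels was not tested. Of the neutrophil markers, 2 of 8 passed the filter on low counts, and Ly6g was at 0 in most libraries of each group.

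**Figure D3:**
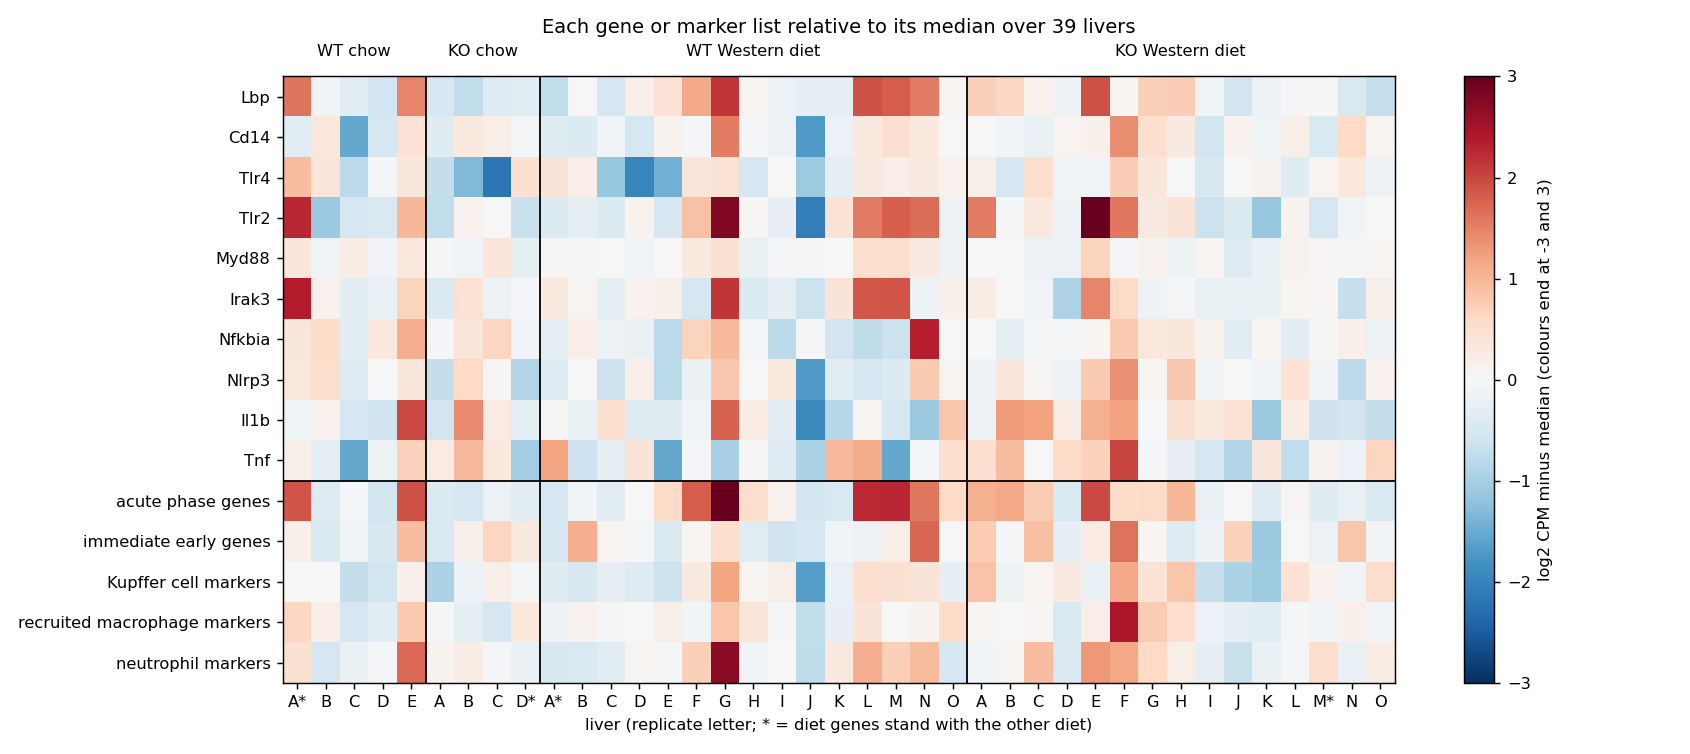
Each gene and the mean of each marker list (rows) in each of the 39 livers (columns, by group and replicate letter; an asterisk marks the 4 livers whose diet genes stand with the other diet), as log2 CPM minus the median over all livers, with colours ending at -3 and 3. Wildtype Western diet G and knockout Western diet E and F stand out across several rows, and wildtype Western diet J is low in most.

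**Figure D4:**
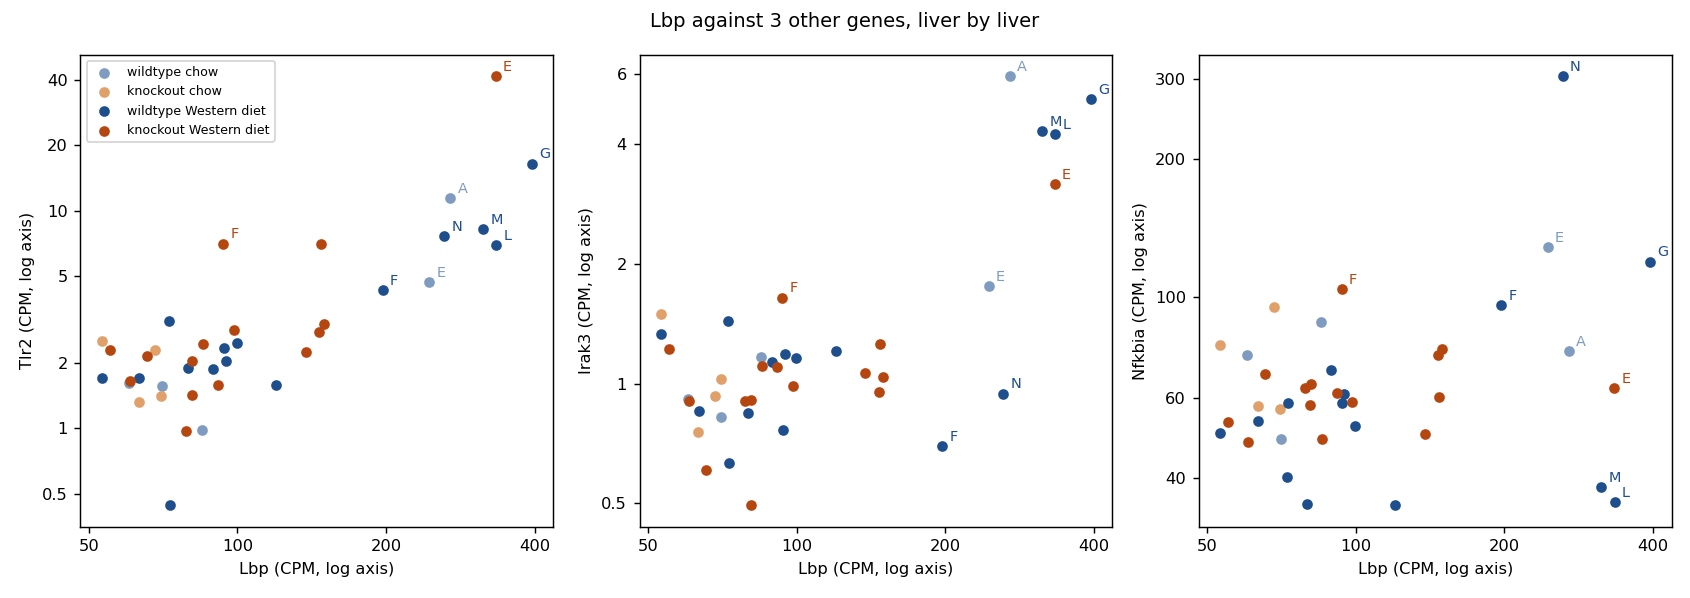
Level of Tlr2, Irak3 and Nfkbia (y axes, CPM, log scale) against Lbp (x axes, CPM, log scale) in 39 livers coloured by group; letters name the 8 livers highest in Lbp and knockout Western diet F. Tlr2 is high in most livers with high Lbp, Irak3 is high in 5 of the 8, and Nfkbia spans 35.4 to 304 CPM among them.

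Over the 30 Western diet livers, taken as deviations from the group mean, the highest Spearman correlations among the 36 pairs of tested genes were 0.682 for Tlr2 with Lbp, 0.612 for Lbp with Myd88 and 0.599 for Tlr2 with Cd14. The lowest were -0.145 for Irak3 with Nfkbia and 0.00334 for Myd88 with Il1b. Within a liver all genes share 1 library and its cell makeup, and between the 30 livers the totals ran from 8578865 to 30438808 counts and the summed Kupffer cell markers from 83.2 to 481 CPM. By the same measure the 3 genes most like each member, among tested genes with a mean of at least 1 CPM, were as follows. For Lbp they were Serping1 (0.917), Hp (0.909) and Itih4 (0.892), secreted proteins of hepatocytes of which Hp and Itih4 are acute phase genes. Tlr2 was most like Hmox1 (0.892), the haem-degrading enzyme, then Csf1 (0.850) and Ccl2 (0.847), a macrophage growth factor and a monocyte chemokine. Myd88 was most like Cd163 itself (0.794), which held 0 to 12 counts in the knockout libraries (0.675 among the 15 knockout livers alone), then Efhd2 (0.762) and Pdia5 (0.713). The nearest genes were Itgb2 (0.756), Apbb1ip (0.733) and Armcx4 (0.728) for Cd14, with Itgb2 the shared chain of leukocyte integrins. Tlr4 had Slco3a1 (0.768), March1 (0.752) and Plxna3 (0.726). Irak3 had Ruvbl2 (0.762), Ly6e (0.750) and Mmd2 (0.747), and Nfkbia had Ip6k2 (0.826), Snai2 (0.749) and Ankrd12 (0.683). Nlrp3 was nearest to Il1a (0.694), the other early IL-1 cytokine, Ccrl2 (0.683) and Birc2 (0.659), and Il1b to Rragc (0.688), Orai3 (0.653) and Pwwp2b (0.647). Each was picked as the highest of many genes over 30 livers, which by itself raises these values, and none was tested. Within 1 genotype they ran from 0.414 (Myd88 with Pdia5, knockout) and 0.454 (Nlrp3 with Ccrl2, knockout) to 0.946 (Tlr2 with Hmox1, knockout, and Lbp with Serping1, wildtype).

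Of the 4 lists of related genes, the other Toll-like receptors and partners held 14 tested genes of 16, the adaptors and kinases 17 of 17, the NF-kB subunits and feedback inhibitors 17 of 17, and the inflammasome, IL-1 and TNF genes 19 of 20. No gene of the 4 lists passed between the genotypes on either diet, nor in the interaction, with all libraries or without the 4. DESeq2 and limma voom made no call there either. The genes with the smallest p of their list on Western diet were Casp1, the protease of the inflammasome (log2 fold change 0.61, SE 0.17, unadjusted p = 0.00103, adjusted p = 0.943), then Tab1, a partner of the kinase MAP3K7 (-0.31), Cnpy3, a chaperone of Toll-like receptors (-0.14), and Sigirr, an inhibitory receptor of the pathway (-0.17). Casp1 ran from 0.724 through a median of 1.72 to 2.49 CPM in wildtype and from 0.906 through 2.66 to 4.25 CPM in knockout livers on Western diet, so the groups overlapped. On chow the smallest p of each list were those of Cnpy3 (-0.24), Nfkbib, another NF-kB inhibitor (-0.32), the adaptor Ticam1 (-0.32) and the TNF receptor Tnfrsf1b (-0.31). The medians of the lists between the genotypes on Western diet were 0.08, 0.01, -0.16 and -0.00 in the order above, against 0.01 over all tested genes. On chow they were 0.01, 0.02, -0.21 and -0.02 against 0.00. In the interaction the smallest p of each list were those of Ticam1 (0.36), Cyld, a deubiquitinase that restrains NF-kB (0.30), Tlr13, a mouse receptor for bacterial ribosomal RNA (0.81), and Il1rn, the IL-1 receptor antagonist (1.15), all at an adjusted p of 1.00.

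A few of these genes were called between the diets as labelled. Tlr12, a receptor that in mice recognises profilin of parasites, was the only gene of the Toll-like receptor list called with all livers. Wildtype chow livers had 6.10 (B), 7.84 (C), 10.5 (E), 12.2 (D) and 15.1 CPM (A), and knockout chow livers 5.60 (C), 6.17 (B), 10.4 (A) and 26.9 CPM (D). Western diet livers ran from 12.6 (A) through a median of 26.9 to 42.8 CPM (O) in wildtype and from 9.86 (M) through 25.5 to 41.6 CPM (N) in knockout mice. The 4 livers that stood with the other diet were thus the highest chow liver and the lowest Western diet liver of each genotype, and Tlr12 was itself among the 206 genes that placed them. The rise was 1.37 on the log2 scale in wildtype (SE 0.32, adjusted p = 0.0312), and averaged over the genotypes 1.23 (SE 0.24, adjusted p = 0.00140), whereas in knockout mice it was 1.10 (SE 0.36, adjusted p = 0.124). The value in knockout mice passed without knockout chow D (1.86, adjusted p = 0.00724) or Western diet M (1.16, adjusted p = 0.0473), with DESeq2 (1.11, adjusted p = 0.0347) and with limma voom (1.42, adjusted p = 0.0187). The call in wildtype mice was lost without chow B, C, D or E, at adjusted p of 0.0960, 0.118, 0.0916 and 0.0679. It was also lost with no filter (adjusted p = 0.0743), the replicate block (0.0628) and the library number as a covariate (0.127).

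Ticam1, the adaptor of the MYD88-independent branch, rose by 0.33 averaged over the genotypes (SE 0.11, adjusted p = 0.0339), from 22.6 ± 3.52 to 25.1 ± 5.59 CPM in wildtype and from 18.1 ± 1.17 to 25.8 ± 5.45 CPM in knockout mice. Il18, the other cytokine that Casp1 matures, fell by 0.26 (SE 0.08, adjusted p = 0.0231), from 11.0 ± 0.560 to 9.75 ± 1.56 CPM in wildtype and from 11.6 ± 1.20 to 9.18 ± 1.34 CPM in knockout mice. Both calls were lost in some fits with 1 chow liver left out, Ticam1 without wildtype D or E or knockout A, B or C (adjusted p 0.0535 to 0.104) and Il18 without knockout A, B or C (adjusted p 0.0526 to 0.0653). With no filter on low counts both calls were lost as well (adjusted p = 0.0531 and 0.0874), and that of Ticam1 also with the replicate block (0.0583) and the library number as a covariate (0.112). By list, averaged over the genotypes, 1 of 14, 1 of 17, 0 of 17 and 1 of 19 genes passed, where 14.6% of all tested genes did. All 14 other Toll-like receptors and partners had a positive value, with a median of 0.32 against -0.00 over all tested genes, of which 49.7% were positive. In the same fit 7 of 8 Kupffer cell markers were positive, with a median of 0.36, and their part in the values of the list was not tested. Cd36, a lipid and lipoprotein receptor that works with TLR2, was at 1.16 (SE 0.44, adjusted p = 0.0688), and Nfkbib at 0.25 (adjusted p = 0.110). In wildtype mice the smallest p of the lists without Tlr12 were those of the TNF receptor Tnfrsf1a (0.30), the inhibitor Tollip (0.13) and Ikbkg, the scaffold of the IKK complex (-0.12), and in knockout mice Ticam1 (0.51, adjusted p = 0.125), Il18 (-0.34, adjusted p = 0.137) and Nfkbib (0.32, adjusted p = 0.258).

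Without the 4 libraries, which the diet genes chose, 14 genes of the 4 lists passed in the averaged diet comparison, in which 29.9% of all genes did. The 9 that rose were Tlr12 (1.76), Tlr9 (1.64), Cd36 (2.13), Cd180 (0.79), Il1rn (1.36), Ticam1 (0.39), Tnfrsf1a (0.38), Nfkbib (0.32) and Nek7 (0.22), and the 5 that fell were Nlrp6 (-0.47), Il18 (-0.30), Tirap (-0.27), Irf3 (-0.24) and Ikbkg (-0.21), as log2 fold changes. In knockout mice alone 8 passed against 17.2% of all genes: Tlr9 (2.72), Cd36 (2.62), Tlr12 (1.93) and Ticam1 (0.59) rose, and Nlrp6 (-0.68), Il18 (-0.41), Irf3 (-0.34) and Ikbkg (-0.29) fell. In wildtype mice alone 1 passed, Tlr12 (1.60), against 8.66% of all genes. Tlr9, the receptor for bacterial DNA, did not pass the filter with all 39 libraries and rested on 0 to 23 counts per library. Il18, Ikbkg, Irf3, Nfkbib and Cd180 overlap genes on the opposite strand in the GRCm38 annotation (Tex12 and Bco2, G6pdx, Bcl2l12, Sirt2 and Ccer2, and Mast4). Nek7 (Gm28501) and Tirap (Gm39318 and Srpr) do as well. These overlaps are of whole gene spans, so whether any counted reads were shared cannot be told. In the averaged comparison of the same fit 7 of 8 Kupffer cell markers were positive, with a median of 0.47. Of the 8, 3 passed the threshold as higher on Western diet, where 29.9% of all genes passed in either direction. The part of cell numbers was not tested.

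**Figure D5:**
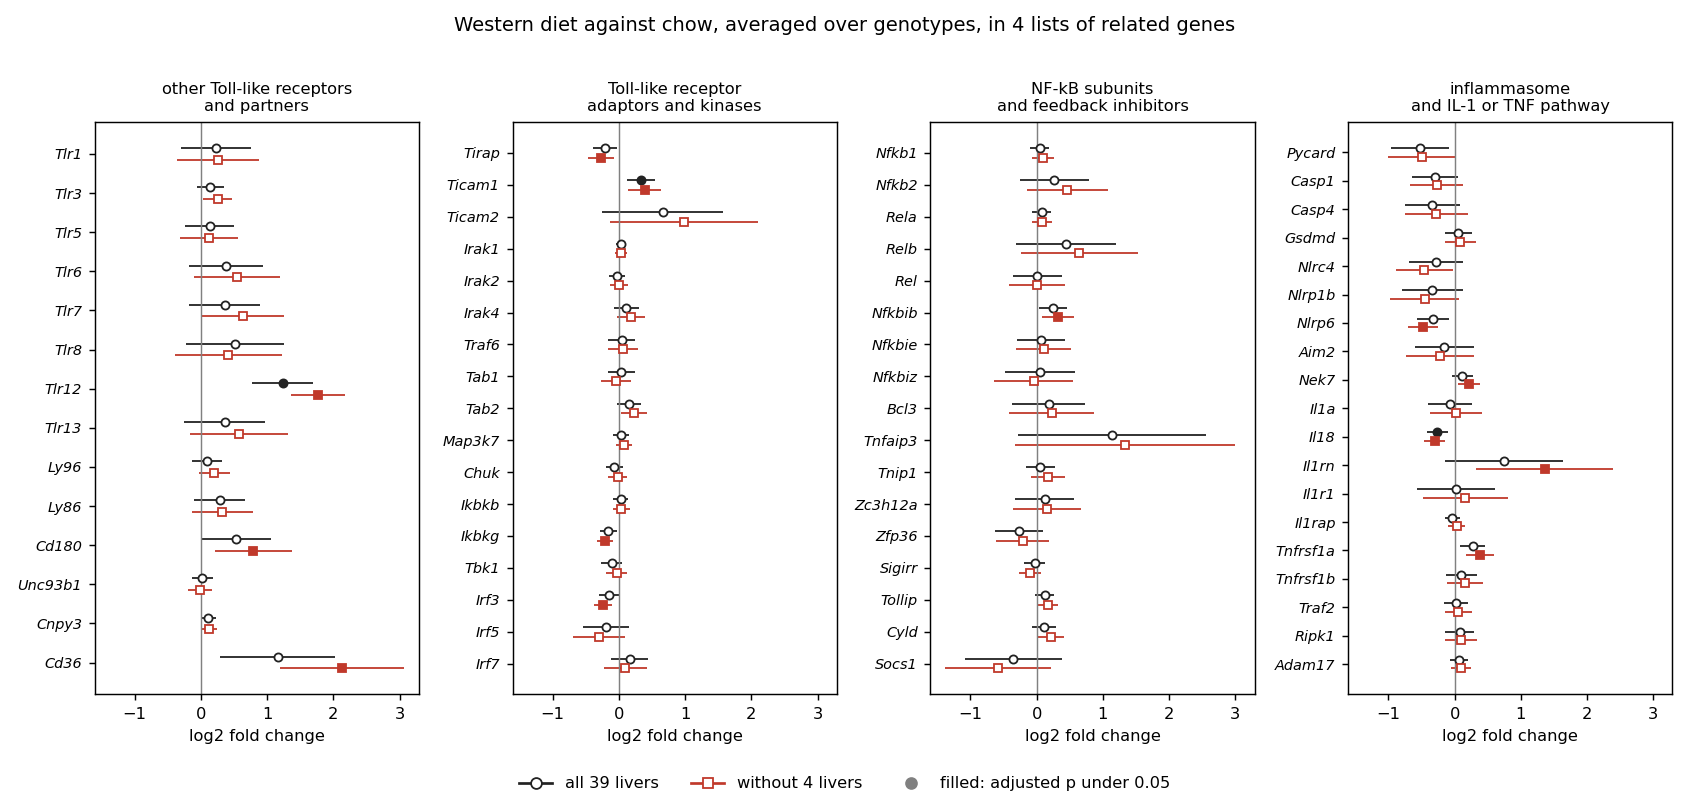
Log2 fold change of Western diet against chow averaged over the genotypes (x axis) for the tested genes of 4 related lists (y axis); points are edgeR estimates, bars approximate 95% intervals, black with all 39 livers and red without the 4 livers, filled where the adjusted p is under 0.05. With all livers Tlr12 (1.23), Ticam1 (0.33) and Il18 (-0.26) are filled.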

How the data were processed

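RNA of 39 mouse livers, 1 library per mouse, was made into NEBNext Ultra libraries and sequenced as paired reads (NovaSeq), per the labels' protocols. The authors deposited raw counts per gene. Per the submitters' processing notes, STAR 2.7.8a, featureCounts 2.0, FastQC and MultiQC were used with GRCm39. Strand setting and annotation release are not given in the sources used here. Symbols from a GENCODE M21 table matched 52083 of 55416 gene identifiers, which hold 99.4% of all counts.

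Here the filterByExpr function of edgeR 4.0.16, at a minimum count of 10 and a total of 15, kept 15296 genes (15461 when the 4 libraries were left out). After TMM scaling, all 39 libraries entered a single quasi-likelihood fit by group in R 4.3.3, which was tested on simulated data. The SE is the log2 fold change divided by the square root of its F. P-values were adjusted by Benjamini-Hochberg across every tested gene (threshold 0.05). They weigh a difference between groups against the spread between mice. CPM values use TMM-scaled totals, log2 CPM a prior count of 2, and intervals cover 95%. Library totals set the precision: at the median total of 14573193 a gene at 1 CPM has few counts, so low genes carry more counting error.

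All 10 members are described in the text. Of the other pathway lists, genes past the threshold and the gene with the smallest p of each list and comparison are named, with the 3 most alike genes of each tested member. The members and lists were chosen with earlier results of these data known. Cd36 in the averaged diet comparison and the liver-by-liver account were chosen after the values were seen. Replicate letters do not pair mice: deviations of same-lettered livers had a mean correlation of -0.0104 over 15 Western diet pairs and -0.0656 over 4 chow pairs.

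Other settings tried were DESeq2 1.42.0, limma voom 3.58.1 with quality weights, RLE size factors, no filter, the replicate block, the library number from the labels as a covariate, only the groups compared, and each library left out in turn. The library numbers follow the groups in runs. Chow libraries were 397 to 400 and 416 to 420. On Western diet, knockout libraries were 401 to 413, 430 and 431, and wildtype libraries 414, 415, 421 to 429 and 432 to 435. A fit with the number as a covariate therefore cannot fully separate group from library order. Figures were drawn with matplotlib 3.10.9. Promoter windows come from RefSeq tables of GRCm38.p6, and gene lengths and overlaps from GENCODE M21 on GRCm38, while the counts refer to GRCm39. Overlaps were taken between whole gene spans, introns included.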

Additional observations from a re-analysis of the deposited data

Results flagged for a closer look

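Within the chow groups, the highest and lowest liver of each of the 10 genes was compared with its nearest neighbour relative to the group's whole range, for 20 sets of 4 or 5 livers. Of these, 2 had a liver far from the others by Dixon's ratio, where chance gives about 1 in 20 if values are normally distributed. Whether these CPM values are was not checked, and the sets share the same livers. The 2 sets are therefore not read as more than chance gives. Il1b was at 5.70 CPM in wildtype chow E, and the nearest of the 5 livers was at 1.48 CPM. Irak3 was at 5.94 CPM in wildtype chow A, which stood with the other diet, and the nearest of the 5 livers was at 1.76 CPM.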

How the results depend on the processing

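The number of genes called between the diets depended on the settings more than that between the genotypes. With all 39 libraries 212 genes were called for diet in wildtype, 1 in knockout and 2234 averaged, and 1 for genotype on each diet. DESeq2 called 515 in wildtype, 230 in knockout, 3 for genotype on Western diet and 2 on chow. Limma voom called 1020 in wildtype, 804 in knockout, 3622 averaged and 0 for genotype on chow. No filter on low counts gave 44 in wildtype, 0 in knockout, 1262 averaged and 3 for genotype on Western diet. The library number as a covariate gave 0 in wildtype and 0 in knockout mice, and the fit of only the groups compared gave 0 in knockout mice. Alternatives added after the data were seen gave, without the 4 libraries, 1339 in wildtype, 2657 in knockout and 4622 averaged, and with wildtype Western diet L and M summed, 116 in wildtype and 0 in knockout mice. With each library left out in turn the counts ran from 0 to 556 in wildtype, from 0 to 1408 in knockout and from 829 to 3505 averaged. The cause of these moves was not tested. The interaction had 0 calls in every fit.

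The replicate letters do not pair mice. With the replicate block the diet counts were 50 in wildtype and 0 in knockout mice. It turned the log2 fold change of Tlr2 to -0.059 and Nfkbia to 0.062 for genotype on Western diet and Il1b to 0.16 for genotype on chow. For diet in knockout mice it turned Cd14 to -0.16, Myd88 to -0.086, Il1b to 0.10 and Irak3 to -0.19.

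Apart from the block, 13 values of the genes turned sign, and none of these was called in either fit. For genotype on Western diet, limma voom gave Tlr2 -0.12 and Nfkbia 0.10, and the library number gave Tlr2 -0.51 and Il1b -0.23. For diet in knockout mice, limma voom gave Myd88 -0.036 and Il1b 0.28, no filter gave Il1b 0.011, the library number gave Il1b 0.17, and the fit without the 4 libraries gave Myd88 -0.056. For diet in wildtype mice, the fit without the 4 gave Myd88 0.039 and Irak3 0.57, and L and M summed gave Tlr2 -0.038 and Lbp -0.022.

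With each library left out in turn, sign changes occurred for genotype on Western diet in Tlr2 (-0.54 to 0.72), Cd14 (-0.026 to 0.34) and Nfkbia (-0.28 to 0.15). For genotype on chow they occurred in Cd14 (-0.017 to 0.41), Il1b (-0.81 to 0.70) and Nfkbia (-0.38 to 0.0026). Diet in wildtype mice had them in Tlr2 (-0.31 to 0.88), Lbp (-0.10 to 0.44), Myd88 (-0.088 to 0.030), Irak3 (-0.52 to 0.54), Nfkbia (-0.54 to 0.038) and Il1b (-0.78 to 0.37), and diet in knockout mice in Myd88 (-0.065 to 0.16), Irak3 (-0.039 to 0.35) and Il1b (-0.24 to 0.61). Tlr4 and Nlrp3 kept their sign in every one of these fits. Depth limits Tnf, with 0 to 50 counts a library, and Tlr4 in knockout chow mice, with 2 to 32 counts.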

Other observations

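The 15 acute phase genes beside Lbp lay on the same side without a call. All 15 had a negative value between the genotypes on Western diet, with a median log2 fold change of -0.41 against 0.01 over all tested genes, and all 15 on chow, with a median of -0.71. Of all tested genes, 53.5% were positive on Western diet and 50.9% on chow. Without the 4 libraries all 15 stayed negative on both diets, with medians of -0.44 on Western diet and -0.52 on chow. The 15 genes were high in the same livers, wildtype Western diet L and M among them, so their signs are not 15 separate results. None passed the threshold with edgeR, DESeq2 or limma voom on either diet, and edgeR had 5 of 15 at an unadjusted p under 0.05 on each, where 5.08% of all tested genes were on Western diet and 2.74% on chow. Their summed level on Western diet ran from 13988 through a median of 19155 to 66128 CPM in wildtype and from 13541 through 16404 to 36252 CPM in knockout livers. On chow it ran from 15756 to 40024 CPM in wildtype and from 12063 to 18314 CPM in knockout livers. As for Lbp, wildtype livers held the high end on chow, whereas on Western diet it held several wildtype livers and knockout E.

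The 8 Kupffer cell markers had positive values between the genotypes on Western diet, 8 of 8 with a median of 0.19, and none was called by edgeR, DESeq2 or limma voom or had an unadjusted p under 0.05. On chow 3 of the 8 were positive and 5 negative, with a median of -0.02. Cd5l, a secreted protein of Kupffer cells, rose on Western diet by 0.73 on the log2 scale averaged over the genotypes (edgeR adjusted p = 0.0360), the only marker of the list that edgeR called there with all libraries, whereas DESeq2 also called Adgre1.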
